A study of Mus musculus with 20 samples.

Results

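The genes described here are 10 smooth muscle contractile and myofibroblast genes, Acta2, Actg2, Tagln, Cnn1, Myh11, Myl9, Tpm1, Tpm2, Cald1 and Lmod1. They, and the gene lists used below, were chosen with earlier results of these data known. Probes of the 10 genes were found by matching the accession of every non-control array probe through RefSeq, without use of any measured value. This gave 15 probes of 9 genes, out of 41174 probes and 17178 named genes on the array. Acta2 had 3 probes, Tagln, Tpm1, Tpm2 and Cald1 had 2 each, and Actg2, Cnn1, Myh11 and Lmod1 had 1 each. No probe matched Myl9, so Myl9 was not analysed here. Probes of a gene were numbered by falling mean signal, and their positions in the transcript were not used.

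RNA was measured in mouse embryonic fibroblasts, primary cells grown out of mouse embryos, after 24 h in culture with mouse serum. All serum came from female mice of the inbred strain C3H/HeN. The irradiated serum was from mice given 8 Gy (20-day set) or 4 Gy (10-day set) under a regime written L/MDR, which the labels do not expand, and each set had its own serum from non-irradiated mice (0 Gy). Groups were 8 Gy serum and control serum in the 20-day set, and 4 Gy serum and control serum in the 10-day set, with 5 arrays in each of the 4 groups. The labels do not state that replicates are separate cultures or serum pools, and the p-values therefore reflect array-to-array spread alone, part of which could be technical. The day count differs with the dose, and the 2 sets lay on different slides, so dose, days, set and slide cannot be told apart. Within the 20-day set the 8 Gy and control arrays also lay on different slides, so serum and slide cannot be told apart there. The labels do not say what the days count.

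Smooth muscle cells contract by sliding actin filaments along filaments of smooth muscle myosin, and the genes for this machinery are switched on largely by serum response factor, which binds a DNA element called the CArG box, and its partners of the myocardin family. Fibroblasts turn on several of the same genes, above all Acta2 and Tagln, when they become myofibroblasts, the contractile fibroblasts of wounds and fibrosis, and transforming growth factor beta and serum are both known to drive that change. Tropomyosin and caldesmon genes also make splice forms used by non-muscle cells.

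The signal is the log2 processed intensity of a probe, counted from the 75th percentile of its array, so that 0 is a brightness equal to that percentile and a difference of 1 is a doubling. All 15 member probes were well above background, a mark set by the scanner software, on every array with a usable spot. The spot of Cald1 probe 1 was left out on 8 Gy replicate 1, which leaves n = 4 for that probe and group. Levels of different probes depend on how each probe hybridises and are not compared with each other here. On the whole arrays, 56.83% to 67.21% of probes were well above background, 0 spots were saturated, 50 to 181 spots per array were left out, and 75th percentiles ran from 731.37 to 1464.3 units of intensity. The lowest shares well above background (57.89%, 56.83% and 59.98%) were on control replicates 1, 2 and 3 of the 20-day set. These arrays, all on slide 4, also had the most spots left out (181, 178 and 154). Replicates 1 and 2 of them had the lowest 75th percentiles (814.83 and 731.37). All 10 fibroblast markers (such as Col1a1, Dcn and Thy1) were well above background on all arrays of every group, and 13 of 13 macrophage genes were so on all arrays of each 20-day group, against 11 of 13 in each 10-day group.

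Promoter windows of 250 bases before the start site were available from RefSeq for 7 of the 10 genes (Acta2, Cnn1, Myl9, Tpm1, Tpm2, Cald1 and Lmod1). Those printed here belong to Acta2, Cnn1 and Lmod1, the members with such a window that had a probe called lower with 8 Gy serum. Acta2 entered through 1 of its 3 probes, and the calls of Cnn1 and Lmod1 depended on the scaling and the slides, as given below. They lie on GRCm38.p6 at chr19:34255374-34255623 on the minus strand (Acta2), chr9:22099003-22099252 on the plus strand (Cnn1) and chr1:135324563-135324812 on the plus strand (Lmod1). Sequences read 5′ to 3′ towards the start site, and capitals mark boxes of the CArG form, searched on both strands, whose 10 bases hold 6 central bases of A or T, or the same with 1 central G or C (CArG-like).
Acta2: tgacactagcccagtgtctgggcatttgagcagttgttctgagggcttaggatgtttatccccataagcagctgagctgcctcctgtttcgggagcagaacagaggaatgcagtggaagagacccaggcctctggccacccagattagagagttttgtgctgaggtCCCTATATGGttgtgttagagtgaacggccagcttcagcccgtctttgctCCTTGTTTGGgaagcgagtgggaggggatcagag
Cnn1: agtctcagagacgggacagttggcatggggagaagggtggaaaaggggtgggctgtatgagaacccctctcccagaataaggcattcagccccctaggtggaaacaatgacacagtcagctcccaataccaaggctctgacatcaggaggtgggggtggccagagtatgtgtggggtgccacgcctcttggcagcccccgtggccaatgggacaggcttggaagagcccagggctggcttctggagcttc
Lmod1: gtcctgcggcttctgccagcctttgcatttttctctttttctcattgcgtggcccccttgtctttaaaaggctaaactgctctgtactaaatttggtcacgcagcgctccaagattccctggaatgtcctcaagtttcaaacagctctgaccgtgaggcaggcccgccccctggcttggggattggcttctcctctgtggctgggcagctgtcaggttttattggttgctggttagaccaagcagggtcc

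The Acta2 window held 2 CArG-like boxes, CCCTATATGG at 84 to 75 bases before the start and CCTTGTTTGG at 34 to 25 bases. The only other member window with such a box was that of the unmeasured Myl9, which had 1 CArG box, CCTAATAAGG, and 1 CArG-like box, CCTTGTAAGG. No box of either form was found in the windows of Cnn1, Lmod1, Tpm1, Tpm2 or Cald1, which says only that these letters are not in these windows. Of 32851 RefSeq windows of the same length, 1.467% held a CArG box and 8.593% held a CArG or CArG-like box. The windows carry start sites chosen by the table, and for Acta2 and Cnn1 these lie inside the outer bounds of the gene.

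**Figure D1:**
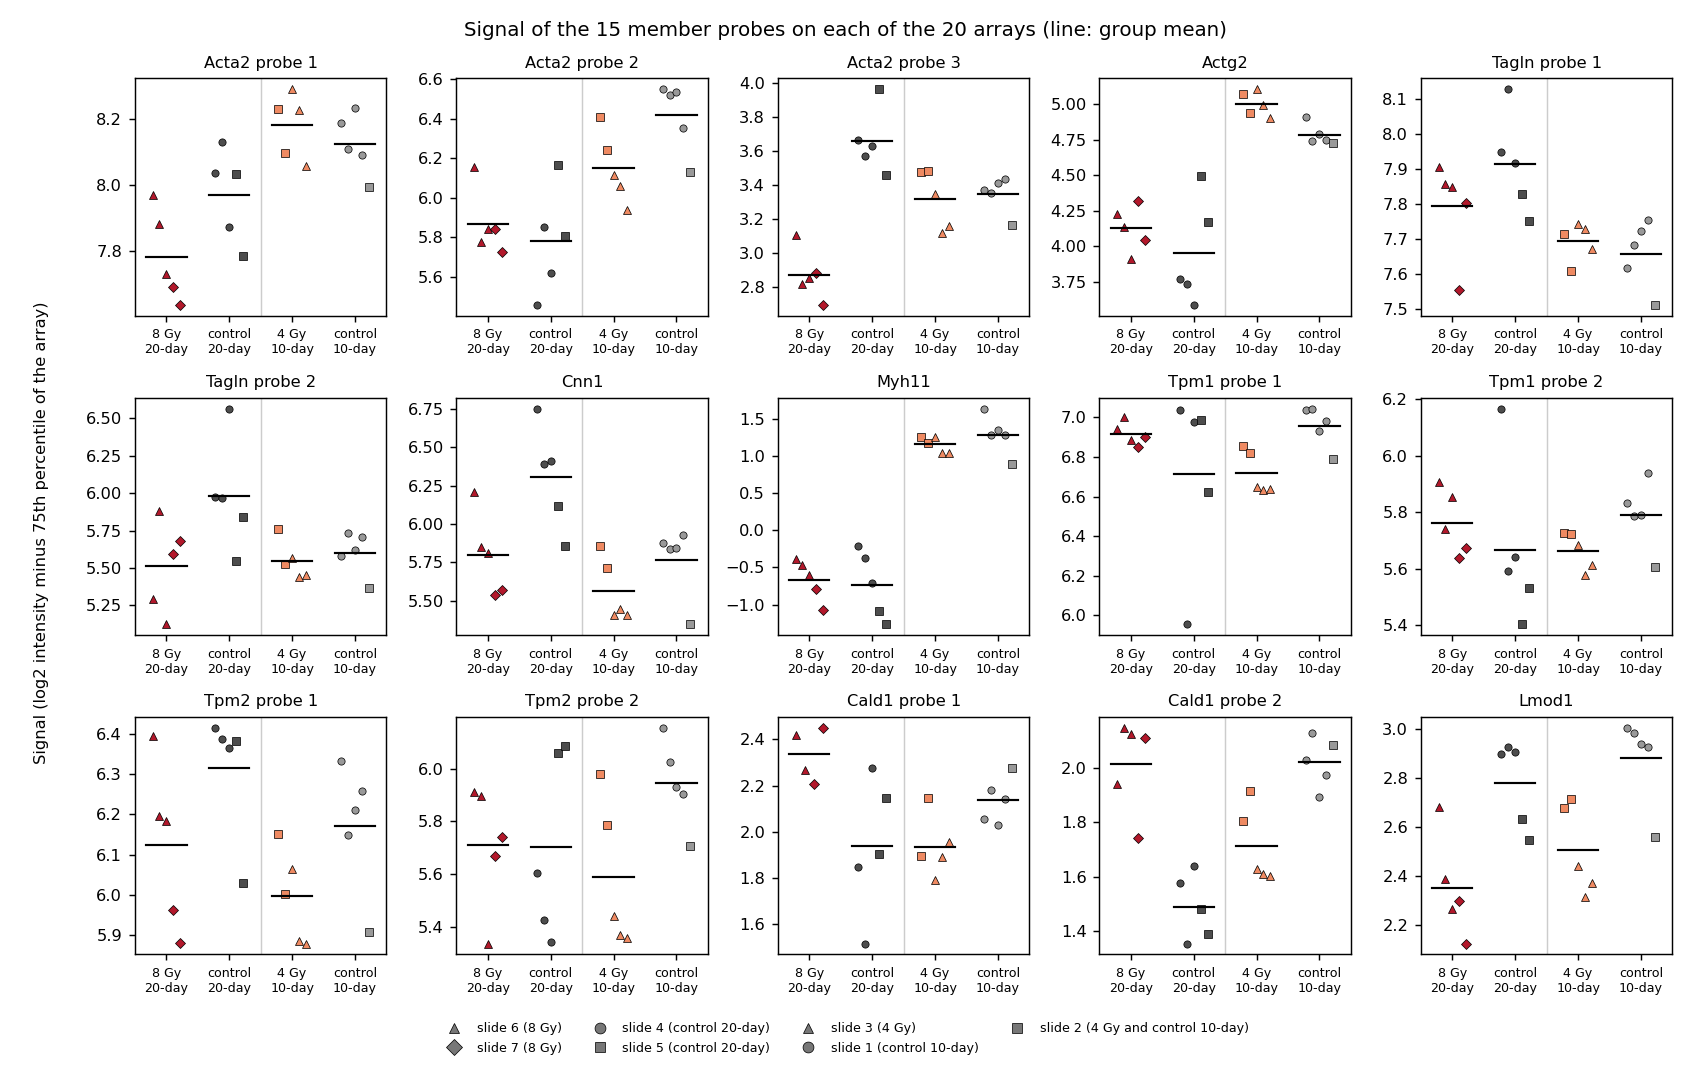
Signal (log2 intensity counted from the 75th percentile of the array, vertical axes, a scale per probe) of each of the 15 member probes on each array, with groups on the horizontal axis, point shape for the slide and a line for the group mean. Myh11 lies between -1.27 and -0.21 in the 20-day groups and between 0.88 and 1.63 in the 10-day groups, and Acta2 probe 3 with 8 Gy serum lies below all arrays of its control.

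8 Gy serum was set against control serum of the 20-day set to see which member genes differ when the serum donors were irradiated. Caldesmon (Cald1) rose on both of its probes, by 0.40 and 0.52 on the log2 scale. Leiomodin 1 (Lmod1), calponin (Cnn1), the second probe of transgelin (Tagln) and the third probe of smooth muscle actin (Acta2) fell. Smooth muscle myosin (Myh11), enteric smooth muscle actin (Actg2) and both tropomyosins (Tpm1, Tpm2) did not pass the test. In all, 6 of 15 member probes were called at an adjusted p under 0.05, against 48% of all 26236 probes tested. Of these 2 were higher, against 20.6% of all probes, and 4 were lower, against 27.4%, a split that became 1 and 7 relative to the array median, 2 and 7 with normexp background correction, 6 and 1 with quantile normalisation and 8 and 1 with cyclic loess. The median change was 0.01 over the member probes and -0.06 over all probes tested.

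Acta2 encodes smooth muscle alpha-actin, the filament protein by which myofibroblasts are usually recognised. Acta2 probe 3 read 3.11, 2.82, 2.86, 2.88 and 2.70 on the arrays with 8 Gy serum, against 3.67, 3.57, 3.63, 3.96 and 3.46 with control serum. Every array with 8 Gy serum was below every control array, and the change was -0.79 (SE 0.10, adjusted p = 5.94e-06), a signal 1.72 times lower. It was called under all 22 alternatives run for it, with changes between -1.01 and -0.55.

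The other probes of Acta2 gave another picture. Acta2 probe 1, the brightest, with 7 to 10 usable spots on each array, read 7.97, 7.88, 7.73, 7.69 and 7.64 with 8 Gy serum, against 8.04, 8.13, 7.87, 8.03 and 7.79 with control serum. The 2 groups overlapped, with a change of -0.19 (SE 0.08, adjusted p = 0.0659). With the replicate number as a block the adjusted p was 0.0393. Without control replicate 5 the change was -0.24 (adjusted p = 0.0269), and without 8 Gy replicate 1 it was -0.24 (0.0292). Acta2 probe 1 was also called lower with scaling to the array median (-0.33, adjusted p = 0.00633), with normexp (-0.32, 0.0262), without slide 5 (-0.23, 0.0439) and without slide 6 (-0.31, 0.0344), while under cyclic loess it was called higher (0.21, 0.0169). Acta2 probe 2 read 6.16, 5.78, 5.84, 5.84 and 5.73 with 8 Gy serum, against 5.46, 5.85, 5.62, 6.17 and 5.81 with control serum, a change of 0.09 (SE 0.13, adjusted p = 0.593), and it was called higher under quantile normalisation (0.33, 0.0208) and cyclic loess (0.40, 0.00988). The 3 probes of this gene therefore do not give 1 direction, and no change is stated for Acta2 as a whole.

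Cald1 encodes caldesmon, which binds actin, myosin, tropomyosin and calmodulin and restrains the motor. Cald1 probe 2 read 1.94, 2.15, 2.13, 1.74 and 2.11 with 8 Gy serum, against 1.58, 1.36, 1.64, 1.48 and 1.39 with control serum. The groups did not overlap, the change was 0.52 (SE 0.09, adjusted p = 0.000118), a signal 1.44 times higher, and it was called under all 22 alternatives, with changes between 0.38 and 0.83. Cald1 probe 1 read 2.42, 2.27, 2.21 and 2.45 on the 4 usable arrays with 8 Gy serum, against 1.85, 1.51, 2.28, 1.90 and 2.15 with control serum. Here 1 control array reached into the 8 Gy range, and the change was 0.40 (SE 0.12, adjusted p = 0.0124). The call of Cald1 probe 1 was lost with scaling to the array median (0.26, adjusted p = 0.0957), with slide as a random block (0.39, 0.093), without slide 6 (0.39, 0.0735), without slide 7 (0.41, 0.0522) and in the authors' deposited value table (0.12, 0.686).

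Cnn1 encodes calponin, an actin-binding protein that damps the myosin ATPase. Its probe read 6.21, 5.85, 5.81, 5.54 and 5.57 with 8 Gy serum, against 6.75, 6.39, 6.41, 6.12 and 5.86 with control serum, a change of -0.51 (SE 0.16, adjusted p = 0.0142). The highest 8 Gy array lay above the lower 2 control arrays. Lmod1 encodes leiomodin 1, which starts new actin filaments in smooth muscle. It read 2.68, 2.39, 2.27, 2.30 and 2.12 with 8 Gy serum, against 2.90, 2.93, 2.91, 2.63 and 2.55 with control serum, a change of -0.43 (SE 0.12, adjusted p = 0.00592), with the same pattern of overlap.

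Tagln encodes transgelin, an actin cross-linker that is among the earliest smooth muscle proteins. Tagln probe 2 read 5.29, 5.88, 5.12, 5.59 and 5.68 with 8 Gy serum, against 5.97, 5.97, 6.57, 5.54 and 5.84 with control serum, a change of -0.46 (SE 0.16, adjusted p = 0.021). Tagln probe 1 averaged 7.79 ± 0.14 with 8 Gy serum and 7.91 ± 0.14 with control serum (SD, n = 5 each), a change of -0.12 (adjusted p = 0.228). Tagln probe 1 was called lower under normexp correction (-0.49, adjusted p = 0.000847) and relative to the array median (-0.26, 0.0251), and higher under cyclic loess (0.27, 0.00242). The call of Tagln probe 2 was lost without control replicate 3 (-0.32, adjusted p = 0.0643), without 8 Gy replicate 1 (-0.41, 0.0556) and without 8 Gy replicate 3 (-0.37, 0.0682).

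The lower calls of Tagln probe 2, Cnn1 and Lmod1 depended on how the arrays were put on 1 scale and on the slides. Under quantile normalisation the changes were -0.23 for Tagln probe 2 (adjusted p = 0.27), -0.29 for Cnn1 (0.145) and -0.26 for Lmod1 (0.0677), and under cyclic loess they were -0.17 (0.408), -0.20 (0.26) and -0.27 (0.0517) in the same order of genes. The arrays with 8 Gy serum lay on slides 6 and 7 and the control arrays of the 20-day set on slides 4 and 5, so no slide held both groups. Without slide 4 the changes were -0.18 for Tagln probe 2 (adjusted p = 0.393), -0.19 for Cnn1 (0.406) and -0.24 for Lmod1 (0.199). Without slide 7 they were -0.35 for Cnn1 (0.137) and -0.34 for Lmod1 (0.0583), and without slide 6 the change of Tagln probe 2 was -0.34 (0.181). With slide as a random block the adjusted p was 0.146 for Tagln probe 2 and 0.0607 for Cnn1. The slide means show the same: Cnn1 averaged 5.96 on slide 6 and 5.55 on slide 7 with 8 Gy serum, against 6.52 on slide 4 and 5.99 on slide 5 with control serum.

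**Figure D2:**
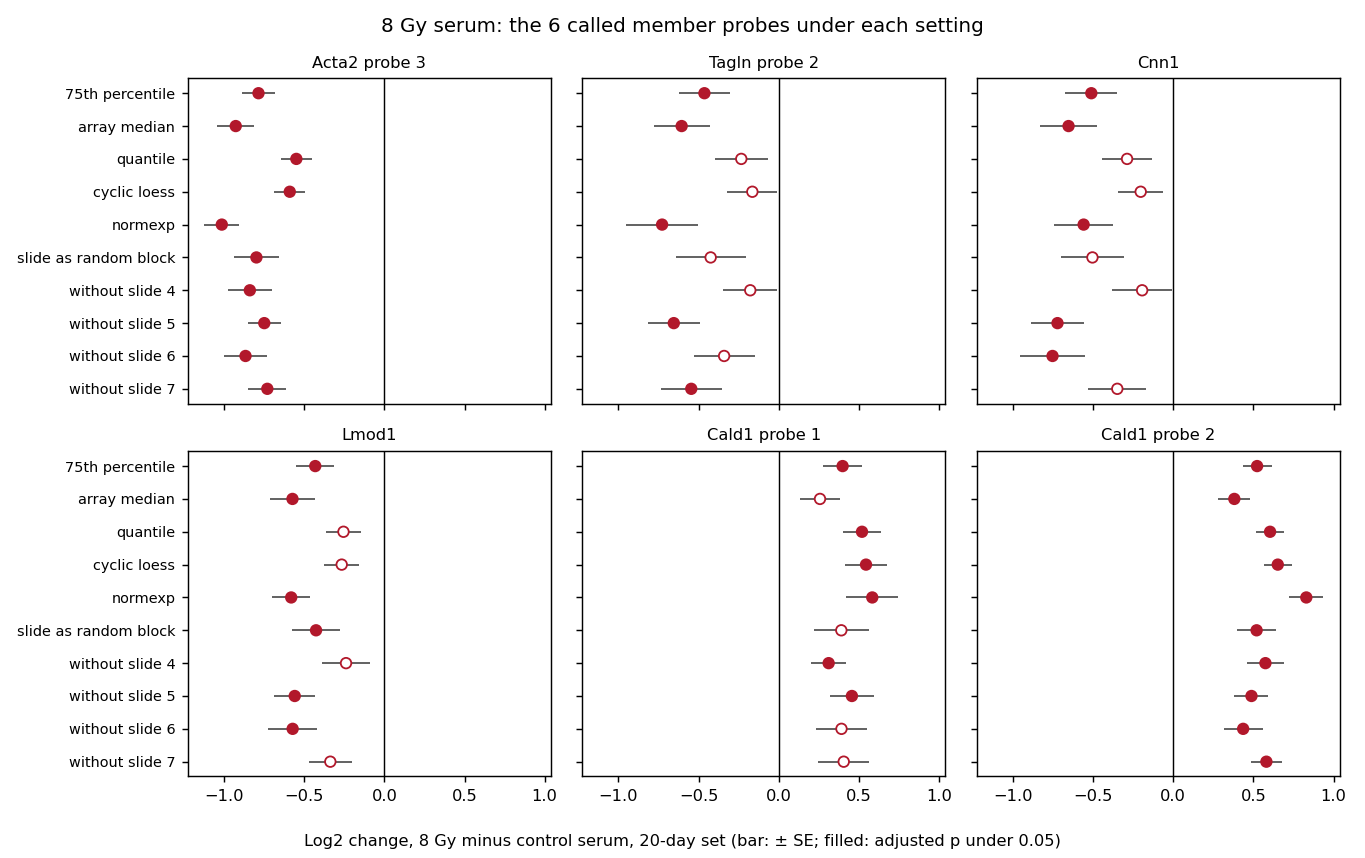
Log2 change (horizontal axes, 8 Gy minus control serum, 20-day set, bars ± SE, filled points at an adjusted p under 0.05) of the 6 called member probes under each scaling, with slide as a random block and without each slide. Acta2 probe 3 and Cald1 probe 2 are filled in every row, while each of the other 4 has open points.

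The remaining member probes did not pass the test in this comparison. Tpm1 and Tpm2 encode tropomyosins, coiled rods that lie along the actin filament and gate its contact with myosin. Changes were 0.20 and 0.10 for the probes of Tpm1 and -0.19 and 0.01 for those of Tpm2. Both probes of Tpm1 were called higher under quantile normalisation (0.42, adjusted p = 0.037, and 0.35, 0.016) and cyclic loess (0.55, 0.00784, and 0.40, 0.00372), and probe 2 also without control replicate 1 (0.22, 0.0243) and without slide 4 (0.30, 0.0146). Tpm2 probe 1 was called lower with the replicate number as a block (-0.19, adjusted p = 0.0306), with scaling to the array median (-0.34, 0.0268), with normexp (-0.38, 0.0249), without control replicate 5 (-0.26, 0.0425) and without slide 6 (-0.39, 0.0262). Actg2, the actin typical of gut and bladder muscle, changed by 0.18 (adjusted p = 0.286), and it was called higher without control replicate 4 (0.31, 0.0195), without slide 5 (0.43, 0.000814), under quantile normalisation (0.41, 0.0182) and under cyclic loess (0.42, 0.0194). The change of Myh11 was 0.07 (adjusted p = 0.779), and 0.52 (0.0251) without slide 4. A p above the threshold does not show that these levels were alike.

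Markers of other cell types give the setting of these changes. Over all probes tested 20.6% were higher and 27.4% lower with 8 Gy serum. Of 17 fibroblast probes 9 were higher with 8 Gy serum and 0 were lower, with a median of 0.36 (7 and 2 relative to the array median, 13 and 0 under cyclic loess), and the summed fibroblast level was 9.73 to 9.82 with 8 Gy serum against 9.51 to 9.75 with control serum. Of 20 macrophage probes 2 were higher and 4 lower, and their summed level was 5.22 to 5.54 with 8 Gy serum against 5.21 to 5.72 with control serum. Of 9 pericyte probes 2 were higher and 3 lower, with a summed level of 4.53 to 4.78 against 4.61 to 4.99. The part of these cell markers in the member changes was not tested. In such bulk RNA, fewer cells of a type and less RNA per cell cannot be told apart.

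4 Gy serum was set against control serum of the 10-day set. None of the 15 member probes passed the test (0 called by limma, 4 at an unadjusted p under 0.05), against 5.29% of all probes tested (3.89% higher and 1.4% lower). The change was above 0 for 3 probes and below 0 for 12, and its median was -0.18 over the member probes, against 0.00 over all probes.

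Lmod1 and Cald1 came closest to the threshold. Lmod1 read 2.68, 2.72, 2.44, 2.32 and 2.37 with 4 Gy serum, against 3.01, 2.99, 2.94, 2.93 and 2.56 with control serum. The groups overlapped through control replicate 5, and the change was -0.38 (SE 0.12, adjusted p = 0.0688), or -0.46 (0.0241) without that array, -0.42 (0.0415) without 4 Gy replicate 1 and -0.43 (0.0348) without 4 Gy replicate 2. Cald1 probe 2 read 1.80, 1.91, 1.63, 1.61 and 1.60 with 4 Gy serum, against 2.03, 2.13, 1.89, 1.97 and 2.08 with control serum. Here a single array with 4 Gy serum lay above the lowest control array, with a change of -0.31 (SE 0.09, adjusted p = 0.0524), or -0.33 (0.0381) without 4 Gy replicate 1 and -0.36 (0.0194) without 4 Gy replicate 2. The change was 0.06 for Acta2 probe 1 (adjusted p = 0.765) and 0.04 for Tagln probe 1 (0.855).

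Part of this set allows a look within a slide. Slide 2 held 4 Gy replicates 1 and 2 and control replicate 5, slide 1 held the other control arrays and slide 3 the other 4 Gy arrays. Within slide 2 only 2 of 15 member probes, those of Cald1, were below 0 (-0.26 for probe 1 and -0.22 for probe 2), against 12 of 15 over all arrays, and 5 of 15 kept their sign. The median within slide 2 was 0.17, and Lmod1 was 0.14 and Cnn1 0.44 above the single control array there. Between slides of 1 group the members also differed: 13 of 15 were lower on slide 3 than on slide 2 with 4 Gy serum (median -0.16), and 13 of 15 were lower on slide 2 than on slide 1 with control serum (median -0.23). The control values of slide 2 rest on control replicate 5 alone, so array and slide cannot be told apart there. That array was also flagged as low for Cnn1 and Lmod1 by Dixon's test. With slide as a fixed block, a limma fit that gives these same within-slide differences, 0 of 15 member probes were called (4 at an unadjusted p under 0.05, smallest adjusted p = 0.193), and 27 of all probes.

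**Figure D3:**
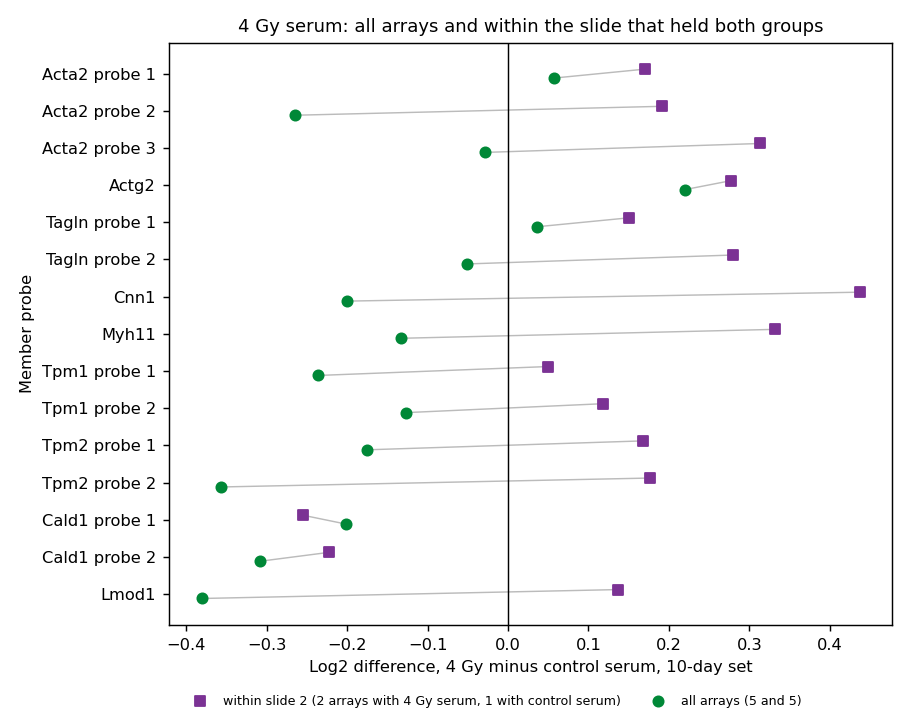
Log2 difference (horizontal axis, 4 Gy minus control serum, 10-day set) of each member probe over all arrays (circles, 5 and 5 arrays) and within slide 2 (squares, 2 arrays with 4 Gy serum and 1 with control serum). Of 15 probes 12 lie below 0 over all arrays and 2 within slide 2, both of Cald1.

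The responses in the 2 sets were then compared directly, as the difference between the change with 8 Gy serum and the change with 4 Gy serum. This difference passed the test for 3 of 15 member probes, against 36.4% of all probes tested, with 2 above 0 (15.3% of all) and 1 below 0 (21.1%), a split that became 6 and 1 under quantile normalisation and cyclic loess and 2 and 3 with normexp. Acta2 probe 3 changed by -0.79 with 8 Gy serum and by -0.03 with 4 Gy serum, a difference of -0.76 (SE 0.14, adjusted p = 0.000552). Cald1 probe 2 changed by 0.52 with 8 Gy serum and by -0.31 with 4 Gy serum, a difference of 0.83 (SE 0.13, adjusted p = 8.59e-05). Both differences were called under all 28 alternatives. Cald1 probe 1 differed by 0.60 (SE 0.17, adjusted p = 0.0101), a call lost with slide as a random block (0.61, adjusted p = 0.0678) and in the authors' deposited value table (0.32, 0.451). Of the member genes with several probes, Cald1 was the 1 whose probes all differed in response, with values above 0 for 8 Gy and below 0 for 4 Gy serum. Lmod1, with -0.43 and -0.38, had a difference of -0.05 (SE 0.17, adjusted p = 0.841). Acta2 probe 2 passed without 20-day control replicate 4 (0.45, adjusted p = 0.0382) and Tpm1 probe 2 without 20-day control replicate 1 (0.35, 0.0145).

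**Figure D4:**
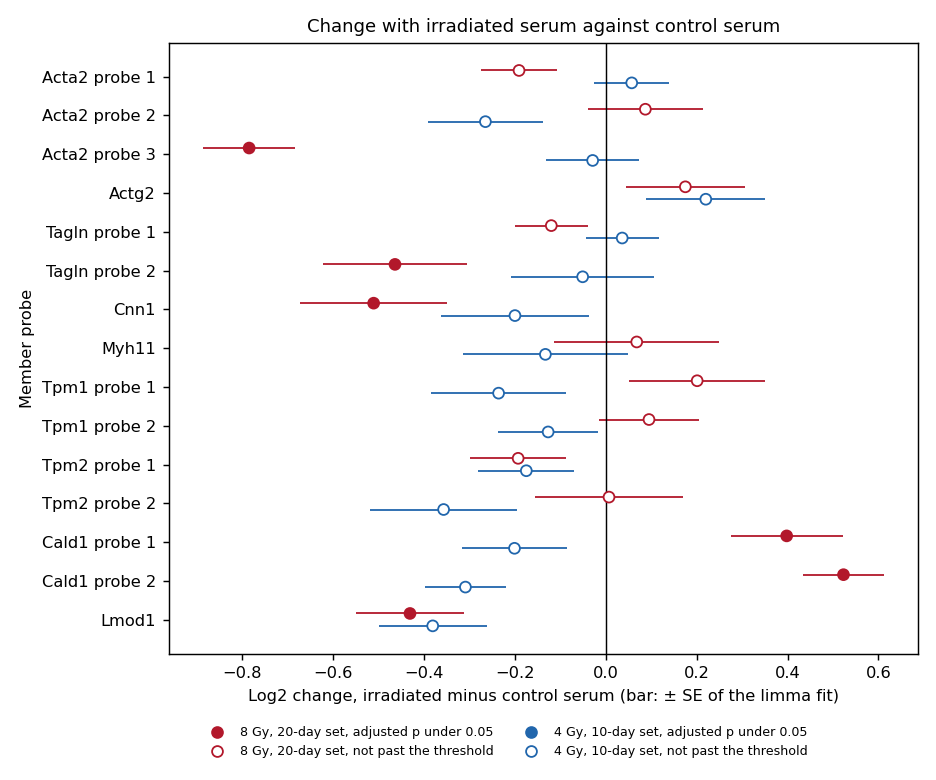
Log2 change with irradiated serum against control serum (horizontal axis, bars ± SE of the limma fit) for the 15 member probes, in red for 8 Gy serum of the 20-day set and in blue for 4 Gy serum of the 10-day set, filled at an adjusted p under 0.05. The 6 filled points are all red, and both Cald1 probes lie above 0 in red and below 0 in blue.

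The 20-day set was set against the 10-day set within each kind of serum. The largest member difference was in Myh11, the smooth muscle myosin heavy chain and a marker of mature smooth muscle cells. Myh11 read -0.39, -0.46, -0.60, -0.79 and -1.07 with 8 Gy serum, against 1.25, 1.18, 1.25, 1.04 and 1.04 with 4 Gy serum. With control serum it read -0.21, -0.37, -0.71, -1.09 and -1.27 in the 20-day set, against 1.63, 1.28, 1.35, 1.28 and 0.88 in the 10-day set. All 10 arrays of the 20-day set were below all 10 of the 10-day set, and the difference was -1.82 with irradiated serum (SE 0.18, adjusted p = 1.12e-07) and -2.02 with control serum (SE 0.18, adjusted p = 1.05e-08), a signal 3.52 and 4.04 times lower. The order of the 4 group means was control 10-day, 4 Gy, 8 Gy and control 20-day from high to low, and the neighbours within each set overlapped.

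Actg2 followed the same order of sets. It read 4.23, 4.13, 3.91, 4.32 and 4.04 with 8 Gy serum, against 5.07, 4.94, 5.11, 5.00 and 4.91 with 4 Gy serum. With control serum it read 3.77, 3.73, 3.59, 4.50 and 4.17 in the 20-day set, against 4.91, 4.74, 4.79, 4.75 and 4.73 in the 10-day set. The groups of the 2 sets did not overlap, and the difference was -0.88 with irradiated serum (SE 0.13, adjusted p = 1.53e-05) and -0.83 with control serum (SE 0.13, adjusted p = 1.53e-05). The calls of Myh11 and Actg2 held under all 18 alternatives run with either serum. The 20-day control arrays of Actg2 spread by slide, with 3.70 on slide 4 and 4.33 on slide 5.

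With irradiated serum 6 of 15 member probes were called between the sets, against 57.1% of all probes, of which 2 were higher (28.2% of all) and 4 lower (28.9%). With control serum 8 of 15 were called, against 67.8%, of which 4 were higher (35.4%) and 4 lower (32.3%), a split that became 0 and 11 under quantile normalisation and 0 and 12 under cyclic loess. The lower calls with control serum, beside Myh11 and Actg2, were Acta2 probe 2 (-0.64, adjusted p = 0.000194) and Cald1 probe 2 (-0.53, 3.66e-05). Both held under all 17 alternatives run. The 4 higher calls were Acta2 probe 3 (0.31, adjusted p = 0.0115), Tagln probe 1 (0.26, 0.00846), Tagln probe 2 (0.38, 0.0415) and Cnn1 (0.54, 0.00642), but none of the 4 stayed higher and called under quantile normalisation or cyclic loess. There the changes were -0.05 and 0.00 for Acta2 probe 3, -0.04 and -0.44 for Tagln probe 1, -0.03 and -0.14 for Tagln probe 2, and 0.13 and 0.01 for Cnn1, so no direction is stated for these. Tagln probe 2 also lost its call without 20-day control replicate 1 (0.38, adjusted p = 0.0579), 2 (0.38, 0.0588) or 3 (0.23, 0.144), and without 10-day control replicate 1 (0.37, 0.0679), 3 (0.38, 0.0601) or 5 (0.32, 0.103). Without 20-day control replicate 1, Tpm1 probe 2 was called (-0.25, adjusted p = 0.00808), and without 20-day control replicate 3, Cald1 probe 1 was called (-0.28, 0.0298).

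With irradiated serum the lower calls, beside Myh11 and Actg2, were Acta2 probe 1 (-0.40, adjusted p = 0.000454) and Acta2 probe 3 (-0.45, 0.00104). The 2 higher calls were both probes of Cald1 (0.40, adjusted p = 0.00989, and 0.30, 0.00834), and with slide as a random block neither passed (adjusted p = 0.0624 and 0.0702). Acta2 probe 2 changed by -0.28 (adjusted p = 0.0629), by -0.34 (0.0402) without 4 Gy replicate 5 and by -0.36 (0.0261) without 8 Gy replicate 1. These comparisons share arrays with those of irradiated against control serum, so their values are not separate evidence of either.

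**Figure D5:**
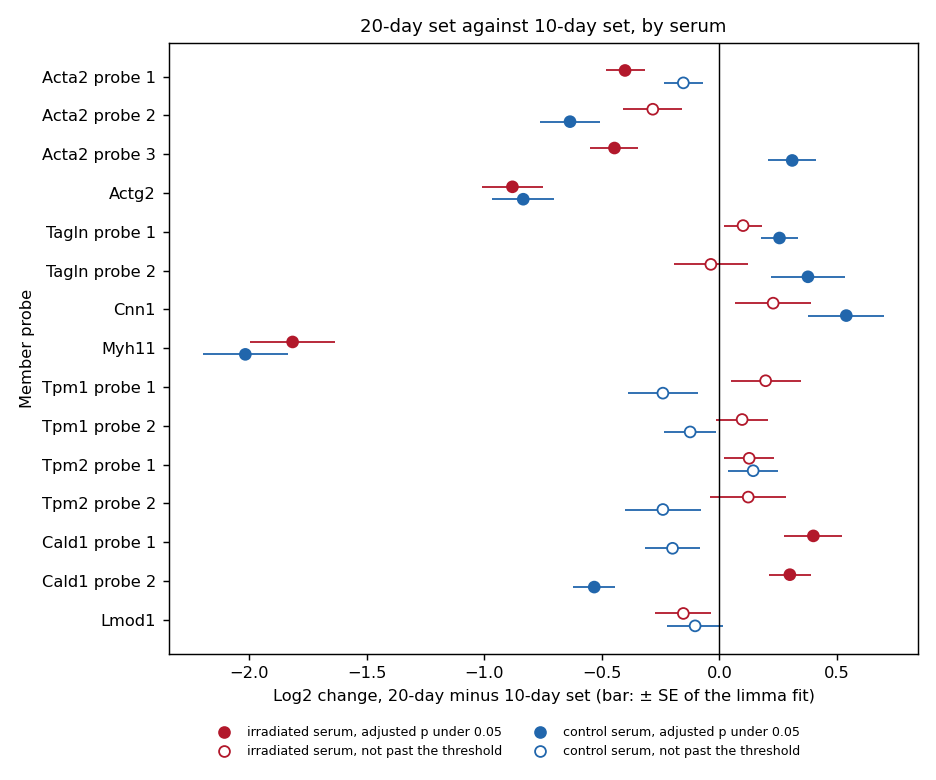
Log2 change of the 20-day set against the 10-day set (horizontal axis, bars ± SE of the limma fit) for the 15 member probes, in red with irradiated serum and in blue with control serum, filled at an adjusted p under 0.05. Myh11 lies at -1.82 and -2.02 and Actg2 at -0.88 and -0.83, while the points above 0 of Acta2 probe 3, Tagln and Cnn1 with control serum turned sign or lost their call under quantile normalisation or cyclic loess.

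Marker genes of several cell types moved with the set. Over all probes tested 28.2% were higher and 28.9% lower with irradiated serum, and 35.4% and 32.3% with control serum. All 20 macrophage probes were higher in the 20-day set with irradiated serum (median 3.81) and with control serum (median 4.05). Their summed level was 5.22 to 5.54 with 8 Gy serum and 5.21 to 5.72 with control serum of the 20-day set, against 1.15 to 1.37 with 4 Gy serum and 0.74 to 1.21 with control serum of the 10-day set, where Spi1 was not well above background on any array. All 8 adipocyte probes were higher (medians 2.41 and 2.76). All 9 pericyte probes were lower (medians -1.31 with irradiated and -1.09 with control serum), with a summed level of 4.53 to 4.78 with 8 Gy serum and 4.61 to 4.99 with 20-day control serum, against 5.40 to 5.53 with 4 Gy serum and 5.51 to 5.66 with 10-day control serum. Pericytes share much of the smooth muscle programme. Of 11 striated muscle probes tested 10 were lower with irradiated serum and 9 with control serum (medians -2.32 and -2.31). With normexp 7 were lower with either serum (medians -0.61 and -0.66). The list had 20 probes, of which 11 passed the filter. Of its 11 genes, 9 were well above background throughout the 10-day control group and 8 with 4 Gy serum, against 4 in each 20-day group. Probes entered the test through any 1 group, so counts for genes seen in 1 set alone partly follow from that filter. Ckm was not well above background on any array. The fibroblast list had 11 of 17 probes lower and 3 higher with irradiated serum, and 13 lower and 2 higher with control serum. The endothelial list had 6 probes, of which 4 were tested and 3 were lower with either serum (2 with normexp). The epithelial list had 2 of 6 higher and 2 lower with irradiated serum and 3 higher and 1 lower with control serum. The part of these cell markers in the differences of Myh11 and Actg2 was not tested.

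Other genes of the contractile pathway were read from 4 lists. For comparison with each list, 20.6% of all probes tested were higher and 27.4% lower with 8 Gy serum, and 3.89% and 1.4% with 4 Gy serum. The list of contraction regulators and other smooth muscle genes had 41 probes tested, of which 14 were higher and 11 lower with 8 Gy serum (median 0.07), or 10 and 12 with normexp and 11 and 14 relative to the array median, and 0 higher and 1 lower with 4 Gy serum. Desmin (Des), the muscle intermediate filament, rose by 0.92 with 8 Gy serum (SE 0.10, adjusted p = 1.22e-06), with means of -1.44 with 8 Gy serum and -2.36 with control serum. Pdlim7, which ties enzymes to the actin cytoskeleton, rose by 0.56 (adjusted p = 2.15e-05), and 0.49, 0.43 and 0.32 on its other probes. The actin cross-linker filamin A (Flna) rose by 0.50 (3.14e-05) on 1 probe, a call lost with normexp (0.29, adjusted p = 0.0856), while its other probes read -0.30 and 0.68. Fhl1, a LIM-domain protein of muscle, fell by 0.76 (adjusted p = 3.4e-05). The GTPase Rhoa fell by 0.39 on 1 probe (0.000154, but 0.0718 under quantile normalisation and 0.101 under cyclic loess) and read -0.49 on the other. The integrin Itga8 fell by 0.98 (0.000279), with its other probes at -0.92 and 0.10. With 4 Gy serum the single call was Ppp1r12a, the targeting subunit of myosin phosphatase (-0.23, adjusted p = 0.0497, but 0.485 with normexp). Over all probes only 1 was called with 4 Gy serum when slide was a random block, against 1388 without it.

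Between the sets the same list leaned lower. With irradiated serum 17 of 41 probes were lower and 4 higher (median -0.25), and with control serum 23 were lower and 3 higher (median -0.41), against 28.9% and 32.3% of all probes lower, and lower calls outnumbered higher ones under all 4 other scalings. Des fell by 1.29 with irradiated serum (adjusted p = 4.9e-09) and by 2.30 with control serum (5.98e-13). Myosin light chain kinase (Mylk) differed in its response to the 2 irradiated sera by -0.75 (SE 0.21, adjusted p = 0.00878), a call lost with normexp (-0.63, adjusted p = 0.0627).

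The regulators of the CArG box were the second list. Of 15 probes of genes tied to serum response factor, 6 were higher and 3 lower with 8 Gy serum (median -0.01), or 5 and 5 with scaling to the array median, and 0 were called with 4 Gy serum. Srf itself, the factor that binds the box, fell by 0.51 with 8 Gy serum (SE 0.07, adjusted p = 1.03e-05), with means of 2.19 with 8 Gy serum and 2.70 with control serum. Its coactivators gave no single direction: Mrtfb fell by 0.33 (adjusted p = 0.0118), and Mrtfa rose by 1.40 (2.73e-05) on 1 probe and read -0.02 on the other. These called probes were low in signal. Means with 8 Gy and control serum were -2.97 and -4.38 for the rising Mrtfa probe, and -2.92 and -2.59 for Mrtfb. The 4 probes of the homeobox gene Prrx1 disagreed, with 1.19, 0.78, 0.73 and -0.82. Between the sets 4 of 15 were higher and 6 lower with irradiated serum, against 28.2% and 28.9% of all probes, a split that became 6 and 5 with normexp and 5 and 6 relative to the array median, so no lean is stated. With control serum 2 were higher and 9 lower, against 35.4% and 32.3% of all probes, and lower calls outnumbered higher ones under the 4 other scalings too.

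The third list held transforming growth factor beta ligands, receptors, transducers and targets. Of 19 probes 5 were higher and 7 lower with 8 Gy serum (median -0.12), or 6 and 4 under quantile normalisation and under cyclic loess. With 4 Gy serum 0 were higher and 1 lower, the ligand Tgfb2 (-0.52, adjusted p = 0.0486). That call comes from the fit without a slide block, and with slide as a random block 1 of all probes was called with 4 Gy serum. With 8 Gy serum the ligand Tgfb1 rose by 0.40 (adjusted p = 0.0026, but 0.0525 with scaling to the array median and 0.0532 with normexp), while the inhibitory Smad7 fell by 0.86 (0.000274) and the feedback repressor Skil by 0.82 (3.2e-05), with 0.15 on the other probe of Skil. The probes of Ltbp1, which holds the latent ligand in the matrix, disagreed, with 0.78 (adjusted p = 1.64e-05) and -0.60 (4.16e-05). Means with 8 Gy and control serum were -3.245 and -4.028 on the rising probe, and 0.996 and 1.601 on the falling probe. Between the sets 1 of 19 was higher and 8 lower with irradiated serum, against 28.2% and 28.9% of all probes, or 2 and 4 with normexp. With control serum 3 were higher and 8 lower, against 35.4% and 32.3%, or 5 and 7 relative to the array median.

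The fourth list held non-muscle counterparts of the members. With 8 Gy serum 6 of 25 probes were higher and 6 lower (median -0.09), or 9 and 4 under cyclic loess and 5 and 11 relative to the array median, and with 4 Gy serum 1 was higher and 0 lower. That call was the cytoplasmic actin Actb, which rose by 1.02 with 8 Gy serum (SE 0.12, adjusted p = 2.87e-06) and by 0.50 with 4 Gy serum (SE 0.12, adjusted p = 0.0263). The 4 Gy call of Actb was lost with slide as a random block, where 0 of all probes were called higher with 4 Gy serum. The other cytoplasmic actin, Actg1, rose by 0.68 with 8 Gy serum (3.09e-06) on 1 probe and read -0.22 on the other. Non-muscle myosin chains Myl12b, Myl12a and Myh9 fell, by 0.64 (3.59e-07), 0.55 (2.41e-05) and 0.36 (0.000211), of which Myh9 lost its call under quantile normalisation (0.164) and cyclic loess (0.841). Between the sets 2 of 25 were higher and 12 lower with irradiated serum, against 28.2% and 28.9% of all probes, or 1 and 17 under cyclic loess. With control serum 5 were higher and 11 lower, against 35.4% and 32.3%, a split that became 3 and 19 under cyclic loess, 5 and 16 under quantile normalisation, 9 and 12 with normexp and 8 and 10 relative to the array median.

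Within groups the members moved together only in part. Deviations of each array from its group mean were correlated over the 20 arrays as a description, since all probes of an array share its slide and its scaling. Over the 98 pairs of probes of different genes Pearson's r had a median of 0.19, with 68 pairs above 0 and 25 above 0.5. The highest was 0.89, between Lmod1 and Cnn1, followed by 0.85 between Tpm2 probe 1 and Cnn1, 0.84 between Myh11 and Cnn1 and 0.82 between Lmod1 and Tpm2 probe 1. The lowest was -0.70, between Cald1 probe 1 and Acta2 probe 1, and Cald1 probe 1 was also below 0 with Myh11 (-0.50) and Tagln probe 1 (-0.45). The 7 pairs of probes of 1 gene lay between 0.15 (Tpm2) and 0.73 (Acta2 probes 2 and 3), all above 0, with a median of 0.46. Cnn1, Lmod1, Myh11 and Tpm2 probe 1 therefore varied together between arrays of a group. Other probes were tied to them too, such as Tpm1 probe 2 (0.80 with Cnn1 and 0.73 with Myh11). Acta2 probe 1 reached 0.78 with Tpm2 probe 1 and 0.71 with Myh11, and Tagln probe 1 reached 0.61 with Cnn1 and 0.62 with Myh11. Actg2 and Cald1 were among those that stood apart, as were Tagln probe 2 and Tpm2 probe 2 (0.25 and 0.09 with Cnn1).

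Outside the members, the genes whose signal over the 20 arrays was most like that of Acta2 probe 1 were Pspn (r = 0.93), Tspan8 (0.91), Get1 (0.91), Trim37 (0.90) and Pcdh9 (0.90). For Tagln probe 1 they were Bod1 (0.91), Ap3m1 (0.90), Gfer (0.90), Rab24 (0.90) and Dnlz (0.89). These values include the differences between groups and sets and are descriptions over 20 arrays.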

How the data were processed

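Per the file headers, the authors scanned 1-colour (Cy3) Agilent arrays and extracted each spot with Agilent Feature Extraction 10.5.1.1 (the submitters' processing notes name 11.0). The deposited processed intensity has had background subtracted and a spatial trend removed, and is not scaled between arrays. The deposited files also hold raw spot and background intensities and quality marks of 0 or 1. The authors' deposited value table holds log2 values centred per probe within each set. Its scale and centring are unstated: they were inferred from its match with the recomputed values (r at least 0.9923 on every array, array medians -0.115 to 0.224), and it was used as an alternative.

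Spots flagged as non-uniform or as outliers of their population were dropped, spots of a probe were averaged, and the 75th percentile of the array was subtracted from the log2 processed intensity. Probes entered the test if some group had them well above background throughout and every group had a value, which left 26236 of 41174 probes (24844 of the latter matched RefSeq, GRCm38.p6). limma 3.58.1 in R 4.3.3 (lmFit, eBayes, 1 mean per group over all 20 arrays, two-sided) gave changes, SE and p, adjusted by Benjamini-Hochberg over all tested probes, with a threshold of 0.05. The fit was tested on simulated data. The number of arrays limits the precision.

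Groups and replicate numbers come from the sample titles, and slides 1 to 7 from the file headers. Deviations from the group means correlated between arrays of the same replicate number at 0.131 to 0.401 in all 5 pairs of the 20-day set. Arrays of different numbers were not compared, and control replicate 5 of the 20-day set correlated at 0.417 with that of the 10-day set. Both 20-day groups also had replicates 1 to 3 on 1 slide and 4 and 5 on another. The correlations therefore do not show a pairing, and the labels name no shared day or animal. The main fit had no block, and the replicate number as a block was an alternative. Alternatives were other scalings (array median, quantile, cyclic loess), normexp with an offset of 50, 1 probe per gene, no filter, slide or replicate as a block, the value table, and leaving out each array. Leaving out slides 4 to 7 in turn, and the other scalings for the lists, were chosen after seeing the data.

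All member probes are named. From the other lists the genes named in a comparison are those of up to 3 probes with the smallest p in each direction, and only some of these are described; a few are not reported here. Likeness was taken as the 5 genes with the highest Pearson r. Members and lists (contraction regulators, SRF and MRTF regulators, TGF-beta, non-muscle counterparts, and markers of fibroblasts, macrophages, striated muscle, pericytes, endothelial, epithelial and fat cells) were chosen with earlier results of these data known. Synpo2, Elk1, Tgfb1i1 and Cd68 had no matched probe.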

Additional observations from a re-analysis of the deposited data

Results flagged for a closer look

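Of 60 groups of member values tested for a single array that stands apart by Dixon's test, 4 had one, where chance gives about 1 in 20. Acta2 probe 2 read 6.16 on 8 Gy replicate 1, above the other 4 arrays of its group. Control replicate 5 of the 10-day set was low for Cnn1 (5.35) and for Lmod1 (2.56), and it was the single control array on slide 2. Control replicate 5 of the 20-day set was low for Tpm2 probe 1 (6.03).

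The test of the difference between the 2 responses (8 Gy serum, 20-day set, minus 4 Gy serum, 10-day set) passed for Acta2 probe 3 (-0.76), Cald1 probe 1 (0.60) and Cald1 probe 2 (0.83), on the log2 scale.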

How the results depend on the processing

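Over the member probes and comparisons, 1605 values were recomputed under the alternatives, of which 1472 stayed on their side of the threshold, 71 passed newly, 39 no longer passed, 12 moved with no test (within-slide-2 values of 4 Gy serum) and 11 turned sign with a call before or after. Of the 1472 and the 12, a total of 96 also had the other sign, with neither value called: 31 with 4 Gy serum (10 with slide as a fixed block and 10 within slide 2), 27 with 8 Gy serum, 20 for the difference between responses, 4 between the control groups and 14 between the irradiated groups. With 8 Gy serum the 27 belong to 7 probes, of which Tpm2 probe 2 had 10 (to -0.36), Myh11 6 (to -0.23), Tpm1 probe 2 had 3 (to -0.048), and Acta2 probe 2 (to -0.12), Actg2 (to -0.21), Tagln probe 1 (to 0.014) and Tpm2 probe 1 (to 0.13) had 2 each.

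Counts that moved by over 1.5 times were these. With 4 Gy serum, 1 member probe was called under scaling to the array median, 2 under quantile normalisation and 1 with the replicate number as a block (Lmod1, adjusted p = 0.00922), against 0, and over all probes 922 with no filter, 1 with slide as a random block and 27 with slide as a fixed block, against 1388. With 8 Gy serum 3 member probes were called with 1 probe per gene, 3 with slide as a random block and 3 without slide 7, against 6, and 8376 of all probes with slide as a random block, against 12600. For the difference between responses, 7 were called under quantile normalisation, 7 under cyclic loess, 5 with normexp and 1 with 1 probe per gene, against 3, and 5312 of all probes with slide as a random block, against 9545. Between the control groups, 4 were called with 1 probe per gene, against 8. Fewer probes are tested with 1 probe per gene. The cause of the other shifts was not tested.

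Leaving out each array in turn gave 0 to 2 called member probes (40 to 2536 of all probes) with 4 Gy serum, with the lowest count without 4 Gy replicate 4 and the highest without 4 Gy replicate 2. It gave 5 to 8 (11631 to 13249) with 8 Gy serum, 3 to 4 (8498 to 10723) for the difference, 7 to 8 (16996 to 18250) between the control groups and 6 to 7 (13883 to 14706) between the irradiated groups.

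Among values called before or after, signs turned for Acta2 probe 1 (0.21) and Tagln probe 1 (0.27) with 8 Gy serum under cyclic loess. Between the control groups they turned under quantile normalisation and cyclic loess for Acta2 probe 3 (-0.046 and -0.003), Tagln probe 1 (-0.043 and -0.44), Tagln probe 2 (-0.034 and -0.14) and Tpm2 probe 1 (-0.25 and -0.41), and between the irradiated groups under cyclic loess for Tagln probe 1 (-0.25).

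Higher and lower calls over all probes were 1020 and 368 with 4 Gy serum, against 817 and 674 under the array median and 957 and 655 under quantile normalisation. With 8 Gy serum they were 5408 and 7192, against 3805 and 9937 under the array median. Between the irradiated groups they were 7411 and 7573, against 8002 and 4610 with normexp, and between the control groups 9298 and 8477, against 11123 and 5979. The split of member calls between the control groups was 4 and 4, against 0 and 11 under quantile normalisation, 0 and 12 under cyclic loess and 4 and 6 with normexp. Between the irradiated groups it was 2 and 4, against 2 and 7 under cyclic loess and 1 and 5 with normexp, and for the difference 2 and 1, against 6 and 1 under quantile normalisation and cyclic loess and 2 and 3 with normexp. Scaling to the array median moved the median of all probes to -0.20 with 8 Gy serum (from -0.06) and to 0.15 between the control groups (from 0.02), and normexp moved the last to 0.19.

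The replicate block changed no other member call with 8 Gy serum than those of Acta2 probe 1 and Tpm2 probe 1. In the 10-day set same-numbered arrays correlated at -0.048 to 0.167 in their deviations, and the labels state no pairing in either set.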
